A study of Mus musculus with 15 samples.

Results

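Stra6l, Tgm1 and Tgm2 are 3 genes of the 14237 measured in the mouse optic nerve, the tract of retinal ganglion cell axons whose own cells are mainly glia. They were found by gene symbol in the deposited table, and each matched 1 row. The genes were chosen by their counts in crushed nerves relative to sham nerves, a measured value, so their values in crushed nerves against sham nerves are given as a description, with no test. Stra6l (ENSMUSG00000028327.14) and Tgm1 (ENSMUSG00000022218.15) were at or near 0 in sham nerves, and Tgm2 (ENSMUSG00000037820.15) was well expressed in all nerves.

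All libraries came from adult C57BL/6J mice that received adeno-associated virus serotype 2 (AAV2) by injection into the vitreous of the eye. In the crush AAV-CNTF group, the virus encoded secretable CNTF (ciliary neurotrophic factor, a cytokine), and the nerve was crushed 2 weeks later. The crush AAV-null group received the null vector followed by the same crush. The sham AAV-null group received the null vector, and its nerve was exposed without crushing. Crushed nerves were taken 7 days after crush, and the labels give no separate times for sham nerves. Each group had 5 biological replicates, numbered 2 to 6. The sources used here name no promoter of the vector, and no sex or exact age of the mice. There was no group with AAV-CNTF and a sham operation, so the vector was compared in crushed nerves only.

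Retinol travels in blood bound to retinol-binding protein 4 (Rbp4), and cells take it up through membrane receptors. Inside the cell it is stored as an ester or oxidized through retinal to retinoic acid, which acts on nuclear receptors. Stra6l encodes a relative of the retinol transporter Stra6, and is known in mice as an Rbp4 receptor of liver and intestine (RBPR2). Transglutaminases join glutamine and lysine side chains and so cross-link proteins in a calcium-dependent reaction. Tgm1 is best known as the membrane-anchored enzyme that builds the cornified envelope of the skin. Tgm2 is a widely expressed enzyme of endothelium, macrophages and matrix-producing cells, which also binds GTP and acts with integrins at the cell surface.

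The libraries held 19856688 to 29558293 expected counts over the listed genes. Myelin genes such as Mbp and astrocyte genes such as Gfap were present in all of them. Of 7 keratinocyte and epithelial genes, Krt1, Krt14 and Trp63 had no row in the table used here. The other 4, Krt5, Krt10, Cdh1 and Epcam, were listed, and Cdh1 averaged 83.3, 87.3 and 23.6 CPM in crush AAV-CNTF, crush AAV-null and sham nerves. Of 6 Schwann cell markers 2 were listed, led by Pmp22 and without Prx, and their sum ran from 278 to 336 CPM (counts scaled to library size) in crush AAV-CNTF nerves, from 270.1 to 335 CPM in crush AAV-null nerves and from 238 to 319.6 CPM in sham nerves. Of 8 markers of the retina and pigment epithelium, Rlbp1 was listed and Rpe65 was not, and Rlbp1 had 6.53 to 17.6 CPM, 6.6 to 14.1 CPM and 9.74 to 22.3 CPM in the same order of groups. Endogenous Cntf averaged 5.64 ± 1.64 CPM in crush AAV-CNTF nerves, 5.29 ± 3.24 CPM in crush AAV-null nerves and 16.4 ± 5.04 CPM in sham nerves (SD, n = 5 each). This gene does not check the vector, since the virus was delivered to the eye and the nerve was sequenced. Crush AAV-null replicate 6 stood apart in genes at 0, with 3.18% against 0.976% to 2.32% in the other 14 libraries. Sham replicate 5 stood apart in skeletal muscle genes, of which 4 of 6 were listed. Their sum was 144 CPM there, 10.7 to 31.3 CPM in the other sham libraries and at most 36.5 CPM in crush libraries.

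Promoter sequence is shown for Stra6l and Tgm1, which were at or near 0 without crush and matched RefSeq windows by symbol; Tgm2 did not match. On mm10, Stra6l spans chr4:45848664-45887008 on the + strand, and GENCODE M21 places no other gene within it. The RefSeq window on GRCm38.p6 at chr4:45848566-45848865, + strand, covers 250 bases before and 50 after the start site of the transcript Stra6l-202. Tgm1 spans chr14:55700009-55713926 on the - strand. Its window at chr14:55713443-55713742, - strand, surrounds the start site of Tgm1-202 and Tgm1-206. Capitals mark letters matching 1 of the motifs searched on both strands, and an opposite-strand match appears as its reverse complement.
Stra6l: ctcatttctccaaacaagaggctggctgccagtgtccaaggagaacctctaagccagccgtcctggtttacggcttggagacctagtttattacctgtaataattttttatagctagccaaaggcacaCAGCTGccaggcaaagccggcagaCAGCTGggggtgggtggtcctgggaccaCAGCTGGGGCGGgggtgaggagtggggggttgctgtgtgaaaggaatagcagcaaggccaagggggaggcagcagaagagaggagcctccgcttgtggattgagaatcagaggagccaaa
Tgm1: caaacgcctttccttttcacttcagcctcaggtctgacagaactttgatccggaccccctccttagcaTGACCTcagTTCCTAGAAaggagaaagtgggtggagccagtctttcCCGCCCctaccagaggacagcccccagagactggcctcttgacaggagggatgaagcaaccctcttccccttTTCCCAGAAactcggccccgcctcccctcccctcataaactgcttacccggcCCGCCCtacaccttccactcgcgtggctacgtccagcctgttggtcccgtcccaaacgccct
The Stra6l window held the E box CAGCTG at 3 places, with first bases at -122, -98 and -70 from the start site, and the GC box GGGCGG at -64, directly after the last E box. Of 32851 mouse promoter windows of the same length, 16.3% held this E box and 35.7% held the GC box. The Tgm1 window held the STAT motif TTCNNNGAA at -173 and -64, a motif that 8.3% of windows held. It also held the retinoic acid receptor core motif AGGTCA at -182, found in 16.3% of windows, and GC boxes at -136 and -12. Neither window held the AP-1 site TGANTCA, the E box CACGTG, the ETS motif GAGGAAGT or the direct repeat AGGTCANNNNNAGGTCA. A second Stra6l window, which overlaps the first, held 2 of the same E boxes and the same GC box, and a second Tgm1 window held none of the 8 motifs searched. A match is a description of letters, not evidence of binding.

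Stra6l had no counted reads in any sham nerve and was detected in all crushed nerves. It had 2.80, 4.26, 2.40, 3.49 and 10.2 CPM in crush AAV-CNTF replicates 2 to 6. Crush AAV-null replicates 2 to 6 had 8.65, 11.3, 2.31, 8.62 and 11.1 CPM. All 5 sham libraries were at 0, and 3 counts, the limit that a count of 0 allows, would be 0.121 to 0.161 CPM per sham library. In crushed nerves with AAV-CNTF 1 library stood far above the other 4, while with AAV-null 1 library lay far below the other 4, and the crush groups overlapped. The summed counts were 615 in crush AAV-CNTF, 1004 in crush AAV-null and 0 in sham libraries. Against 3 counts over the sham group, which is 0.0281 CPM, Stra6l was at least 161-fold higher in crush AAV-CNTF nerves and at least 303-fold higher in crush AAV-null nerves. Such a bound covers counting error only.

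Few genes in the table showed this pattern, although the table itself favours it. Of 14237 genes, 20 had no count in any sham library, 8 of these had a count in all 10 crush libraries, and 3 had at least 50 counts in each. Every listed gene had at least 1 FPKM (fragments scaled to transcript length and library depth) in at least 4 libraries of some group. Stra6l met this in crush AAV-null nerves alone, with 1 library at or above 1 FPKM in crush AAV-CNTF nerves, 4 in crush AAV-null nerves and 0 in sham nerves. A gene listed through 1 group must be high there, so its presence in the table carries no independent information.

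**Figure D1:**
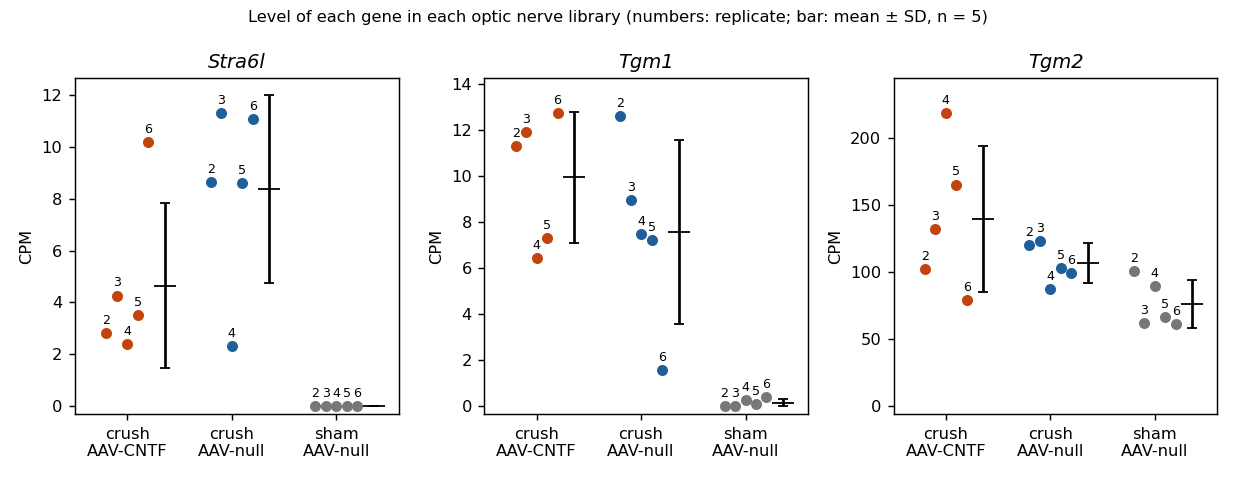
CPM of Stra6l, Tgm1 and Tgm2 (y axes, linear, separate scales) in each library of the crush AAV-CNTF, crush AAV-null and sham AAV-null groups; points are libraries with their replicate number, and bars are the mean ± SD of 5. Stra6l and Tgm1 sit at or near 0 in all sham libraries and above them in all 10 crush libraries, while the Tgm2 groups overlap.

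Tgm1 showed the same step with a small residue in sham nerves. Its level was 11.3, 11.9, 6.41, 7.29 and 12.7 CPM in crush AAV-CNTF replicates 2 to 6. In crush AAV-null replicates 2 to 6 it was 12.6, 8.93, 7.44, 7.22 and 1.56 CPM. Sham replicates 2 to 6 had 0, 0, 0.233, 0.0536 and 0.364 CPM, that is 0, 0, 5, 1 and 9 counts. Every crush library lay above every sham library, and the lowest crush library was crush AAV-null replicate 6, the one that stood apart in genes at 0. Tgm1 averaged 9.92 ± 2.86 CPM in crush AAV-CNTF nerves, 7.55 ± 3.99 CPM in crush AAV-null nerves and 0.13 ± 0.162 CPM in sham nerves (SD, n = 5 each). The fitted log2 fold change over sham was 6.14 ± 0.73 (SE) in crush AAV-CNTF nerves and 5.74 ± 0.72 in crush AAV-null nerves. Without crush AAV-null replicate 6, the AAV-null value was 6.00. The sham level rests on 15 counts in all, of which 9 were in 1 library, and without that library, sham replicate 6, the AAV-CNTF value was 6.99.

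Tgm2 was already expressed in sham nerves and was higher on average in both crush groups, with overlap. Crush AAV-CNTF replicates 2 to 6 had 102, 132, 218, 165 and 79.0 CPM. Crush AAV-null replicates 2 to 6 had 120, 123, 86.8, 103 and 98.9 CPM. Sham replicates 2 to 6 had 100.1, 61.4, 89.3, 66.1 and 61.1 CPM. In all, 4 of the 5 crush AAV-CNTF libraries and 3 of the 5 crush AAV-null libraries exceeded the highest sham library. The means were 139 ± 54.7 CPM in crush AAV-CNTF nerves, 106 ± 15.1 CPM in crush AAV-null nerves and 75.6 ± 18.0 CPM in sham nerves (SD, n = 5 each). The log2 fold change over sham was 0.88 ± 0.21 (SE) in crush AAV-CNTF nerves and 0.49 ± 0.21 in crush AAV-null nerves.

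Read against all genes, a complete separation from sham was not rare. Stra6l and Tgm1 were wholly above sham in both crush groups, as were 11.9% of 14194 tested genes for crush AAV-CNTF and 10.5% for crush AAV-null. Nothing is read from these counts, since the choice of the 3 genes used this contrast, and the comparisons share the sham libraries. In these bulk samples, more cells of a type and more RNA per cell cannot be told apart.

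Per length, the 3 genes stood at different levels. In crush AAV-CNTF nerves Tgm2 averaged 43.0 ± 17.2 FPKM, Tgm1 4.0 ± 1.14 FPKM and Stra6l 1.04 ± 0.872 FPKM (SD, n = 5). In crush AAV-null nerves they averaged 33.4 ± 5.55, 3.09 ± 1.62 and 2.01 ± 0.906 FPKM in the same order. In sham nerves Tgm2 averaged 20.6 ± 5.04 FPKM, Tgm1 0.048 ± 0.0589 FPKM and Stra6l was listed at 0. Tgm2 exceeded Tgm1 in each of the 10 crush libraries, by 4.79 to 26.5 times with AAV-CNTF and by 7.32 to 48.5 times with AAV-null. The highest AAV-null ratio was 11 without crush AAV-null replicate 6, a setting added after the data were seen. The ranges of Tgm1 and Stra6l overlapped in both crush groups, since Stra6l ran from 0.54 to 2.59 FPKM with AAV-CNTF and from 0.57 to 2.98 FPKM with AAV-null. Compared within each library, Tgm1 exceeded Stra6l in every crush library except crush AAV-null replicate 6 (0.63 against 2.98 FPKM). Among all listed genes, the FPKM of Tgm2 lay between the 75.4th and 92.1st percentile in crush AAV-CNTF libraries, the 78.1st and 85.2nd in crush AAV-null libraries and the 69.3rd and 80.6th in sham libraries. Stra6l did not exceed the 20.5th percentile in any library.

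The gene models limit these levels in different ways. For Stra6l, the expected counts per FPKM varied between crush libraries by 0.815 to 1.24 times their centre, against 0.988 to 1.03 for Tgm1 and 0.973 to 1.02 for Tgm2. Its annotation holds coding transcripts of 3606 to 4009 exonic bases and a retained-intron transcript of 7254 bases, whose shares RSEM estimates per library. Tgm2, at chr2:158116402-158146436 on the - strand, shares 370 of its 4608 exonic bases with Rprd1b on the opposite strand and 633 with Gm20412. Tgm1 shares 182 of 3162 exonic bases with the antisense gene Gm49067. The sources used here do not state whether counting used strand, so reads in these shared stretches cannot be assigned to 1 gene with certainty. Rprd1b averaged 10.5 FPKM in crush AAV-CNTF nerves, 13.9 in crush AAV-null nerves and 10.9 in sham nerves, each below Tgm2.

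Between the vectors after crush, none of the 3 genes passed the test, and the crush AAV-null libraries had taken part in their choice. Over all genes, 8 of 14194 (0.0564%) were called in this comparison by edgeR's quasi-likelihood test, at a Benjamini-Hochberg adjusted p under 0.05. An unadjusted p under 0.05 was reached by 1091 genes (7.69%), and DESeq2 called 78. Stra6l differed by a log2 fold change of -0.86 ± 0.53 (SE; 95% interval -2.02 to 0.30), with means of 4.63 ± 3.18 CPM in crush AAV-CNTF nerves and 8.39 ± 3.63 CPM in crush AAV-null nerves (edgeR adjusted p = 0.793). Tgm1 differed by 0.39 ± 0.55 (-0.80 to 1.58; edgeR adjusted p = 0.955). Tgm2 differed by 0.39 ± 0.21 (-0.06 to 0.84; edgeR adjusted p = 0.707). All 3 intervals include 0 and also sizeable differences, so equal levels are not shown either. By DESeq2 the adjusted p values were 0.771, 0.970 and 0.808 for Stra6l, Tgm1 and Tgm2. In the authors' deposited table the same log2 fold changes stand at -0.86, 0.39 and 0.39, with adjusted p of 0.705, 0.992 and 0.674.

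Single libraries moved each of these differences. Without crush AAV-CNTF replicate 6, the highest Stra6l value of its group, the Stra6l difference was -1.37 (edgeR adjusted p = 0.490). Without crush AAV-null replicate 6, the Tgm1 difference was 0.13 (edgeR adjusted p = 0.981), and without crush AAV-null replicate 2 it was 0.66 (edgeR adjusted p = 0.934). Without crush AAV-CNTF replicate 4, whose Tgm2 level of 218 CPM was the highest of all libraries, the Tgm2 difference was 0.17 (edgeR adjusted p = 0.985). Tgm2 varied most within crush AAV-CNTF nerves, with a coefficient of variation of 39.3%, against 14.2% in crush AAV-null and 23.8% in sham nerves.

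Within the crushed nerves no correlation between the 3 genes passed its test. Over 10 crush libraries the correlation of log2 CPM was -0.18 for Stra6l and Tgm1, with Spearman's rho 0.16 (permutation p = 0.764 and 0.664). It was -0.40 for Stra6l and Tgm2, with rho -0.19 (permutation p = 0.262 and 0.611). It was -0.02 for Tgm1 and Tgm2, with rho -0.25 (permutation p = 0.848 and 0.486). Adjusted over the 3 pairs, the two-sided permutation p of r was 0.848, 0.786 and 0.848, and that of rho was 0.664 for each pair. Leaving out the 2 libraries farthest from the median of the first gene gave r of -0.33, -0.47 and -0.33. Without crush AAV-null replicate 6, where Tgm1 was lowest and Stra6l high, r was 0.42 for Stra6l and Tgm1 and -0.47 for Tgm1 and Tgm2. Groups of 5 are too few for a correlation within each vector. With AAV-CNTF, the library lowest in Tgm2, replicate 6, was the highest in Stra6l, and the library highest in Tgm2, replicate 4, was the lowest in Stra6l. With AAV-null the ends matched instead, since replicate 3 was the highest in both genes and replicate 4 the lowest in both.

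The summed levels of phagocyte and macrophage markers varied beside Stra6l. All 12 phagocyte and macrophage genes were listed, led by Apoe, and their summed level ran from 12465 to 22380 CPM in crush AAV-CNTF nerves, from 18289.7 to 24936 CPM in crush AAV-null nerves and from 7083 to 8724 CPM in sham nerves. Within each crush group, the library with the lowest sum, replicate 4, also had the lowest Stra6l level. The highest sums were in AAV-CNTF replicate 6 and AAV-null replicate 3, the libraries highest in Stra6l. The match was not complete, since AAV-null replicate 6 had 11.1 CPM of Stra6l and a sum of 22671 CPM. That sum lay below those of AAV-null replicates 2, 3 and 5. Apoe alone averaged 11283, 13105 and 6474 CPM in crush AAV-CNTF, crush AAV-null and sham nerves, a large part of the phagocyte sum. The 10 homeostatic microglia genes summed to 1796 to 2332 CPM with AAV-CNTF, 2121 to 2859.7 CPM with AAV-null and 982 to 1208 CPM in sham nerves. This sum too was highest in AAV-CNTF replicate 6 and AAV-null replicate 3. It was lowest in AAV-CNTF replicate 5 and AAV-null replicate 2, which were not the libraries lowest in Stra6l. Beside Tgm2, the sum of 6 listed border and blood-derived macrophage genes of 8 was 33.0 to 112 CPM in crush AAV-CNTF nerves, 28.2 to 56.8 CPM in crush AAV-null nerves and 19.9 to 42.3 CPM in sham nerves. It was highest in AAV-CNTF replicate 4 and lowest of its group in AAV-CNTF replicate 6, as Tgm2 was. Cd163 and Chil3 of that list had no row. All 8 fibroblast and meningeal genes were listed, led by Col1a1, and summed to 3917 to 10607 CPM with AAV-CNTF, 4073 to 6890.3 CPM with AAV-null and 1079 to 2531 CPM in sham nerves. With AAV-CNTF the fibroblast sum was highest in replicate 5 and lowest in replicate 2, which are not the libraries highest and lowest in Tgm2. Both the fibroblast sum and Tgm2 were higher in AAV-CNTF replicates 3, 4 and 5 than in replicates 2 and 6. The 7 endothelial genes, led by Cdh5, summed to 241 to 523 CPM with AAV-CNTF and 281 to 345 CPM with AAV-null. In sham nerves they summed to 231 to 305 CPM. Their sum was also higher in AAV-CNTF replicates 3, 4 and 5 than in replicates 2 and 6. So was the sum of pericyte and smooth muscle genes, at 364, 355 and 439 CPM against 204 and 206 CPM. For Tgm1, 4 of 7 keratinocyte and epithelial genes were listed, mainly Cdh1, with sums of 28.6 to 121 CPM, 51.6 to 165 CPM and 13.2 to 53.6 CPM in the same order of groups. Cdh1 and Epcam, 2 of these 4, were higher in both crush groups than in sham by edgeR, while 17.0% of all tested genes were called higher with AAV-CNTF and 14.7% with AAV-null. The keratin genes Krt5 and Krt10, the rest of the 4, were not called and had log2 fold changes below 0. Krt5 had -2.02 ± 1.14 (SE) with AAV-CNTF and -0.54 ± 1.10 with AAV-null over sham. Krt10 had -0.30 ± 0.51 and -0.09 ± 0.51. The part of these cells in the levels of the 3 genes was not tested.

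The genes most like each member over all 15 libraries were ranked by Pearson's r of log2 CPM among genes with a mean of at least 5 CPM. These r values describe 3 groups of libraries of which sham is one, so they mostly reflect the step between sham and crush. For Stra6l the 5 leading genes were Ctsd and Ctsb (lysosomal proteases), Spp1 (osteopontin), Sdcbp (syntenin, a scaffold protein) and Abca1 (a cholesterol exporter), each with r of 0.98. Over the 10 crush libraries alone their r with Stra6l was 0.74 to 0.88. Ctsd averaged 3778 ± 913 CPM in crush AAV-CNTF nerves, 5810.5 ± 996 CPM in crush AAV-null nerves and 623 ± 136 CPM in sham nerves (SD, n = 5 each). Ranked over the crush libraries alone, the leading genes were Hist1h3i, Dnajc5, Ctla2a, Plin2 (the lipid droplet coat protein) and Slc2a8, with r of 0.90 to 0.94. Over all 15 libraries Dnajc5 and Slc2a8 had r of 0.55 and 0.17, and the others 0.77 to 0.97. For each member this crush ranking took the highest r of 11677 genes over only 10 libraries, a selection that favours high values, and no r was tested.

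For Tgm1 the 5 leading genes over 15 libraries were Ms4a7 (a macrophage membrane protein), Hist1h2bk, Arpc1b (an actin-nucleation subunit), Gpr183 (an oxysterol receptor) and Top2a (a topoisomerase of dividing cells), with r of 0.96 to 0.97. Top2a averaged 71.8 ± 8.26 CPM in crush AAV-CNTF nerves, 73.0 ± 8.14 CPM in crush AAV-null nerves and 3.92 ± 2.03 CPM in sham nerves (SD, n = 5 each). Its r with Tgm1 over the crush libraries alone was -0.11, against 0.60 to 0.85 for the other 4. Over the crush libraries alone the leading genes were Mcur1, Slc2a6, Ccnh, Morn2 and Timm50, with r of 0.94 to 0.95. Over all 15 libraries the r of these genes ranged from -0.38 to 0.87. Without crush AAV-null replicate 6, a setting added after the data were seen, their r over the other 9 crush libraries was 0.61 to 0.70. The 5 leading genes were then Mtmr9, Grin2d, Vegfb, Zdhhc2 and Nudt19, with r of 0.89 to 0.95, and 0 of the 5 had led with that library included. The histone genes Hist1h3i and Hist1h2bk have near-identical copies, so their counts are uncertain.

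For Tgm2 the leading genes over 15 libraries were C1s1 (a complement protease), Lpp, Cd93 (an endothelial and myeloid receptor), S100a11 and Sulf1, with r of 0.85 to 0.93. C1s1 had the same r of 0.93 over the crush libraries alone. It averaged 46.7 ± 36 CPM in crush AAV-CNTF nerves, 16.0 ± 4.90 CPM in crush AAV-null nerves and 8.37 ± 3.55 CPM in sham nerves (SD, n = 5 each). Over the crush libraries the others were Dis3, Hsp90b1 (an endoplasmic reticulum chaperone), Tgtp1 (an interferon-induced GTPase) and Ifi203 (an interferon-induced gene), with r of 0.91 to 0.94. Over all 15 libraries the r of these genes ranged from 0.45 to 0.82. The r values for Tgm2 were not computed without AAV-CNTF replicate 4, where Tgm2 was highest, so their dependence on that library is not known. Tgtp1 averaged 45.1 ± 66.2 CPM with AAV-CNTF, 6.64 ± 3.02 CPM with AAV-null after crush and 3.46 ± 2.45 CPM in sham nerves (SD, n = 5 each), and has near-identical relatives that can share its reads. The sum of 6 listed T and NK cell markers of 7, led by Cd4, was 19.5 to 63.8 CPM with AAV-CNTF, 5.87 to 15.5 CPM with AAV-null after crush and 10.3 to 24.5 CPM in sham nerves. It was highest in AAV-CNTF replicate 4, as were Tgm2 and the sum of border macrophage genes, and its part was not tested. The order of other libraries differed, since AAV-CNTF replicates 2 and 5 had T and NK sums of 54.6 and 21.4 CPM. Tgm2 had 102 and 165 CPM in these libraries.

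**Figure D2:**
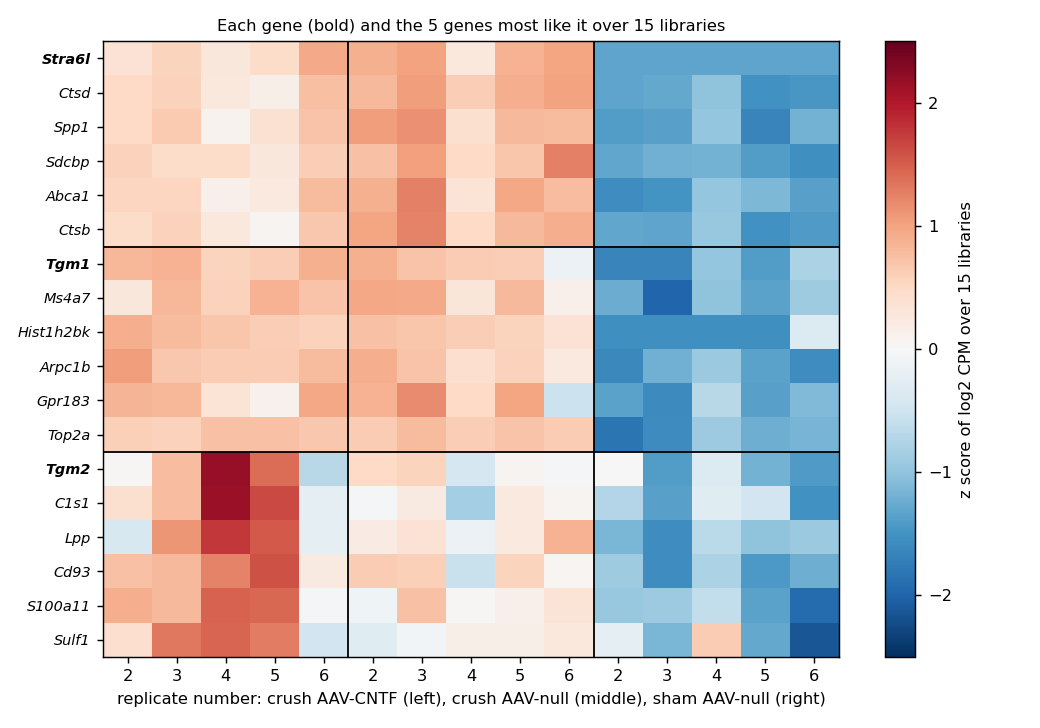
Level of Stra6l, Tgm1 and Tgm2 (bold) and of the 5 genes most like each over 15 libraries (rows), as z scores of log2 CPM over the 15 libraries (columns, with crush AAV-CNTF left, crush AAV-null middle and sham AAV-null right). The Stra6l and Tgm1 blocks separate crush from sham, while most genes of the Tgm2 block are highest in crush AAV-CNTF replicates 4 and 5.

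Of the genes that handle retinoids, some were higher and some lower after crush, and none passed the test between the vectors. Of 39 genes in this list, 27 were listed and tested. In crush AAV-CNTF nerves 10 were higher and 3 lower than in sham nerves (edgeR), and 14 were not called, against 31.3% of all tested genes called in that comparison. In crush AAV-null nerves 6 were higher and 2 lower and 19 were not called, a share near the 27.6% of all tested genes. The median log2 fold change over sham was 0.27 for crush AAV-CNTF and 0.22 for crush AAV-null, beside 0.01 and 0.00 over all tested genes. Both comparisons share the sham libraries, and the list was chosen with earlier results of these data known. Leaving out crush AAV-null replicate 5 brought the AAV-null count to 5, and leaving out crush AAV-null replicate 6 brought it to 6.

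Among uptake genes and carriers, Stra6, the retinol transporter related to Stra6l, was abundant. It averaged 289.6 ± 76.2 CPM in crush AAV-CNTF nerves, 267 ± 74.6 CPM in crush AAV-null nerves and 159 ± 66.9 CPM in sham nerves (SD, n = 5 each), with overlap between groups. Its log2 fold change over sham was 0.86 ± 0.25 in crush AAV-CNTF nerves (edgeR adjusted p = 0.0118) and 0.74 ± 0.25 in crush AAV-null nerves (edgeR adjusted p = 0.0315). The AAV-null call was lost without any 1 of sham replicates 2, 5 and 6 and crush AAV-null replicates 3, 5 and 6, with log2 fold changes of 0.58 to 0.74. Per length, Stra6 exceeded Stra6l by 40.4 to 277 times in crush AAV-CNTF libraries and by 36.6 to 210.3 times in crush AAV-null libraries. Rbp4, the blood carrier that Stra6l is known to bind in mice, averaged 1.86 ± 0.711 CPM in crush AAV-CNTF nerves, 2.51 ± 1.51 CPM in crush AAV-null nerves and 7.27 ± 4.42 CPM in sham nerves (SD, n = 5 each). It was lower in crush AAV-CNTF nerves by edgeR (log2 fold change -1.96 ± 0.65, adjusted p = 0.0252), a call lost without crush AAV-CNTF replicate 2 or sham replicate 2 or 5 (-1.78 to -1.70). Scarb1, a lipoprotein and carotenoid receptor, was higher in both crush groups, by 0.80 ± 0.22 with AAV-CNTF and 0.91 ± 0.22 with AAV-null (edgeR adjusted p = 0.00879 and 0.00401).

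Of the enzymes, Dhrs3, which reduces retinal back to retinol, had the smallest adjusted p of the list in both comparisons with sham. It averaged 77.0 ± 12.7 CPM in crush AAV-CNTF nerves, 87.5 ± 13.5 CPM in crush AAV-null nerves and 21.5 ± 5.99 CPM in sham nerves (SD, n = 5 each), without overlap between crush and sham. Its log2 fold change over sham was 1.84 ± 0.18 with AAV-CNTF (edgeR adjusted p = 1.16e-07) and 2.03 ± 0.18 with AAV-null (edgeR adjusted p = 4.16e-08). Aldh1a1, a retinal dehydrogenase that makes retinoic acid, fell to 67.7 ± 7.42 CPM in crush AAV-CNTF nerves and 72.8 ± 17.6 CPM in crush AAV-null nerves, against 148 ± 12.6 CPM in sham nerves (SD, n = 5 each), without overlap. Its log2 fold change was -1.13 ± 0.14 with AAV-CNTF and -1.03 ± 0.14 with AAV-null (edgeR adjusted p = 2.54e-06 and 9.6e-06). Aldh1a3, of the same family, averaged 8.63 ± 5.76 CPM in crush AAV-CNTF nerves, 5.69 ± 3.08 CPM in crush AAV-null nerves and 1.63 ± 1.48 CPM in sham nerves (SD, n = 5 each) and was called higher with AAV-CNTF. Its log2 fold change over sham was 2.41 ± 0.82 with AAV-CNTF (edgeR adjusted p = 0.0288) and 1.81 ± 0.80 with AAV-null (edgeR adjusted p = 0.104), and the call was lost without crush AAV-CNTF replicate 4 or 5 or sham replicate 6 (2.08 to 2.16). Aldh1a2, the third of these dehydrogenases, was not called (-0.50 ± 0.30 with AAV-CNTF and -0.37 ± 0.30 with AAV-null, edgeR adjusted p = 0.228 and 0.404). Without sham replicate 6 it passed in both comparisons, at -0.75 and -0.62. Rdh10, which oxidizes retinol to retinal, was higher by 0.92 ± 0.30 with AAV-CNTF and 0.95 ± 0.31 with AAV-null (edgeR adjusted p = 0.0247 and 0.0234). Its calls were lost without sham replicate 4, 5 or 6, crush AAV-CNTF replicate 4 or 5, or crush AAV-null replicate 3 or 5, at 0.74 to 0.91.

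Genes of storage, retinoic acid binding and reception followed. Lipe, a lipase that also acts on retinyl esters, was lower in counts, with log2 fold changes of -0.57 ± 0.20 with AAV-CNTF and -0.62 ± 0.20 with AAV-null (edgeR adjusted p = 0.0326 and 0.0239). Per length it was not lower, at 6.42, 6.46 and 6.23 FPKM on average in crush AAV-CNTF, crush AAV-null and sham nerves. The reason for this difference between the measures was not tested. Both calls were lost without sham replicate 3, the AAV-CNTF call also without sham replicate 6 or crush AAV-CNTF replicate 5 or 6, and the AAV-null call also without crush AAV-null replicate 2, 3, 5 or 6, at -0.58 to -0.50. Fabp5, a fatty acid carrier that also binds retinoic acid, was higher by 0.95 ± 0.21 and 1.19 ± 0.21 (edgeR adjusted p = 0.00135 and 0.000178). Cyp26b1, which degrades retinoic acid, was higher with AAV-CNTF by 1.00 ± 0.29 (edgeR adjusted p = 0.0119) and had 0.66 ± 0.29 with AAV-null (edgeR adjusted p = 0.101). The AAV-null difference passed without sham replicate 4 (0.89). Of the 6 receptors, Rxra was higher in both crush groups (0.74 ± 0.14 and 0.77 ± 0.14, edgeR adjusted p = 0.000295 and 0.000221), and Rara was higher with AAV-CNTF (1.23 ± 0.27, edgeR adjusted p = 0.00117). Rara had 0.69 ± 0.26 with AAV-null (edgeR adjusted p = 0.0559), which passed without sham replicate 3 or 5 or crush AAV-null replicate 3, at 0.79 to 0.88. Rarb and Crabp2, a retinoic acid-inducible receptor and the carrier of retinoic acid to the nucleus, were not called in either comparison. No difference between the crush groups passed for Rara (0.53 ± 0.26, edgeR adjusted p = 0.660).

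**Figure D3:**
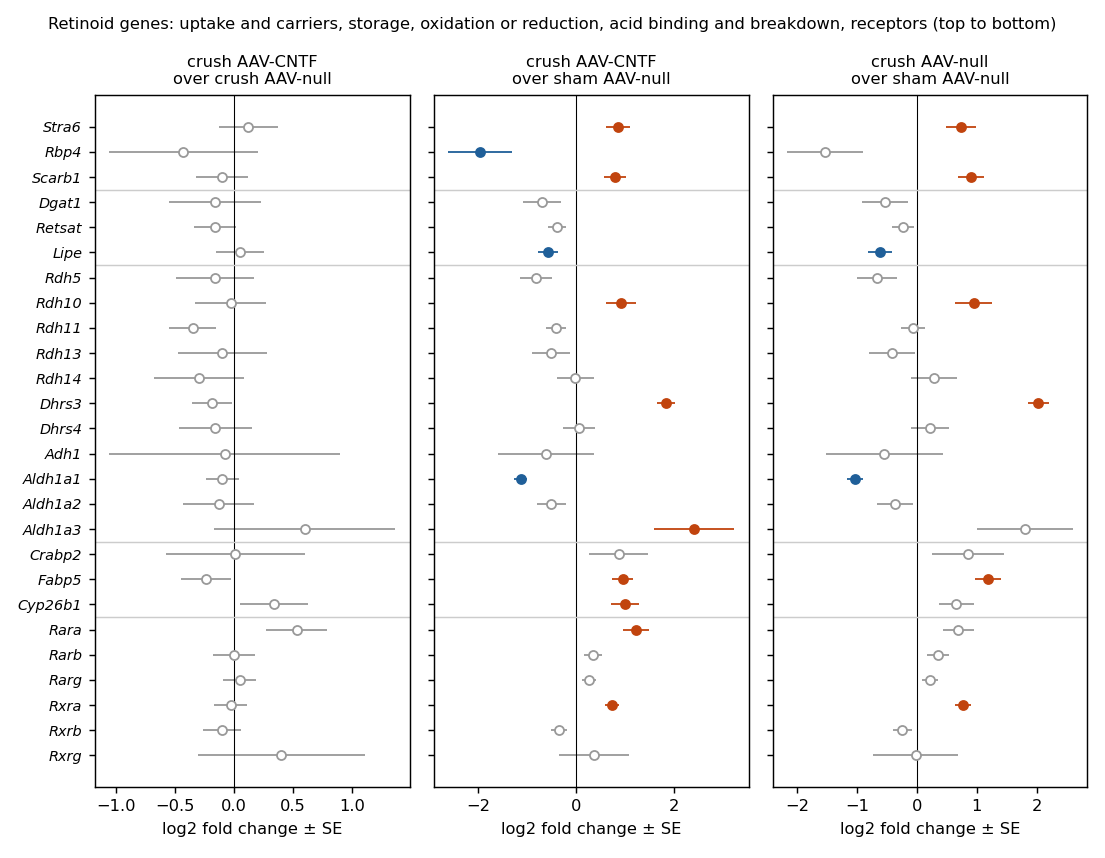
Log2 fold change ± SE (x axes, separate scales) of tested retinoid genes (rows, in 5 blocks by role) in 3 comparisons; filled points passed an edgeR adjusted p of 0.05, red for higher and blue for lower, and open points did not. Dhrs3 and Aldh1a1 lie on opposite sides of 0 in both comparisons with sham, and no point is filled between the vectors.

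Of the known target genes of retinoic acid, those called were all higher after crush. Of 13 such genes, 8 were tested, and 6 were higher and 0 lower in crush AAV-CNTF nerves over sham nerves, against 17.0% of all genes called higher. In crush AAV-null nerves 3 were higher and 0 lower, against 14.7%, and without sham replicate 4 the count was 5, without crush AAV-null replicate 6 it was 2. The list was chosen with earlier results of these data known, so these counts carry no independent information. Dhrs3, Hic1, Stra6, Cyp26b1 and Nrip1 were among the 6, and some of these genes also stand in the list above. Hic1, a transcriptional repressor, was higher by 1.14 ± 0.17 and 1.11 ± 0.17 (edgeR adjusted p = 2.74e-05 and 4.63e-05). Nrip1, a nuclear receptor corepressor, was higher in crush AAV-CNTF nerves (0.38 ± 0.10, edgeR adjusted p = 0.00693), and had 0.03 ± 0.10 in crush AAV-null nerves (edgeR adjusted p = 0.857). Between the vectors Nrip1 averaged 97.1 CPM with AAV-CNTF and 76.3 CPM with AAV-null, without overlap, and did not pass (0.35 ± 0.10, edgeR adjusted p = 0.266), while 0.838% of all genes were wholly above in this comparison. The sums of phagocyte and of fibroblast markers given above were higher in every crush library than in every sham library, and their part in the retinoid and target gene counts was not tested.

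**Figure D4:**
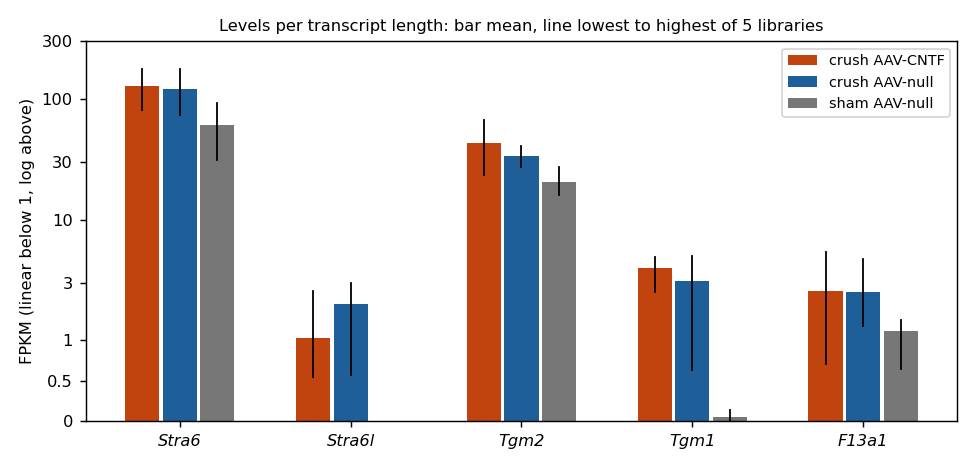
Mean FPKM (bars) and the lowest to highest of 5 libraries (lines) of Stra6, Stra6l, Tgm2, Tgm1 and F13a1 in crush AAV-CNTF, crush AAV-null and sham AAV-null nerves; the y axis is linear below 1 and logarithmic above. Stra6 lies far above Stra6l and Tgm2 above Tgm1 in every group.

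Of the other transglutaminases, F13a1 was the 1 listed gene of 8. It encodes the A chain of coagulation factor XIII, which macrophages also make. It averaged 8.96 ± 6.78 CPM in crush AAV-CNTF nerves, 8.76 ± 4.63 CPM in crush AAV-null nerves and 4.77 ± 1.47 CPM in sham nerves (SD, n = 5 each). No comparison of it passed (over sham 0.91 ± 0.48 with AAV-CNTF and 0.87 ± 0.48 with AAV-null, edgeR adjusted p = 0.164 and 0.195). Per length, Tgm2 exceeded F13a1 in all libraries, by 9.67 to 33.5 times with AAV-CNTF, by 8.63 to 24.7 times with AAV-null after crush and by 10.7 to 42.3 times in sham nerves. Tgm1 ranged from below to above F13a1, at 0.559 to 6.85 times its FPKM with AAV-CNTF and 0.223 to 3.37 times with AAV-null after crush, against at most 0.0963 in sham nerves. The lowest AAV-null ratio was 0.803 without crush AAV-null replicate 6.

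Partners and substrates of transglutaminase 2 were mostly higher after crush. All 18 genes of this list were tested, and in both comparisons with sham 14 were higher and 1 lower by edgeR, against 31.3% of all genes called for crush AAV-CNTF and 27.6% for crush AAV-null. The median log2 fold change was 0.78 for crush AAV-CNTF and 0.67 for crush AAV-null. The list was chosen with earlier results of these data known, so these counts carry no independent information. Fn1, fibronectin, a binding partner and substrate, averaged 5702 ± 1858 CPM in crush AAV-CNTF nerves, 6056 ± 1996 CPM in crush AAV-null nerves and 1482 ± 775 CPM in sham nerves (SD, n = 5 each), without overlap between crush and sham. Spp1, osteopontin, a substrate, averaged 555 ± 221 CPM, 1127 ± 509 CPM and 21.6 ± 10.1 CPM in the same order of groups. Its log2 fold change over sham was 4.68 ± 0.39 with AAV-CNTF and 5.70 ± 0.41 with AAV-null (edgeR adjusted p = 1.9e-08 and 2.38e-09). Spp1 was also among the genes most like Stra6l.

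Thbs1 (thrombospondin 1), Tgfb1 (a cytokine whose latent complex is cross-linked to matrix) and Fbn1 (fibrillin 1) were higher in both crush groups. Thbs1 had 2.77 ± 0.34 with AAV-CNTF and 2.41 ± 0.34 with AAV-null (edgeR adjusted p = 2.54e-06 and 1.42e-05). Tgfb1 had 1.73 ± 0.14 and 1.69 ± 0.14 (edgeR adjusted p = 1.63e-08 and 2.1e-08). Fbn1 had 1.75 ± 0.28 and 1.30 ± 0.28 (edgeR adjusted p = 5.78e-05 and 0.00118). Of the cell-surface partners, the integrin genes Itga5 and Itgb5 had 1.53 ± 0.16 and 1.13 ± 0.14 with AAV-CNTF, and 1.46 ± 0.16 and 1.51 ± 0.14 with AAV-null, all called by edgeR. Mfge8, a bridging protein in the uptake of dying cells, had 0.71 ± 0.13 and 0.68 ± 0.13 (edgeR adjusted p = 0.000288 and 0.000484). Adgrg1, an adhesion receptor that binds transglutaminase 2, was the 1 gene that fell, to 104 ± 12.1 CPM in crush AAV-CNTF nerves and 109 ± 13.2 CPM in crush AAV-null nerves, against 188 ± 27.8 CPM in sham nerves (SD, n = 5 each; edgeR adjusted p = 7.14e-06 and 2.2e-05). Sdc4, Plcd1 and Ltbp1 were not called. Between the vectors 0 of the 18 passed by edgeR, by DESeq2 or without any 1 library, and Spp1 had -1.02 ± 0.33 (edgeR adjusted p = 0.358). The sums of phagocyte and of fibroblast markers given above moved with these genes between crush and sham, and their part was not tested. Spp1 is itself 1 of the genes in the phagocyte sum.

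**Figure D5:**
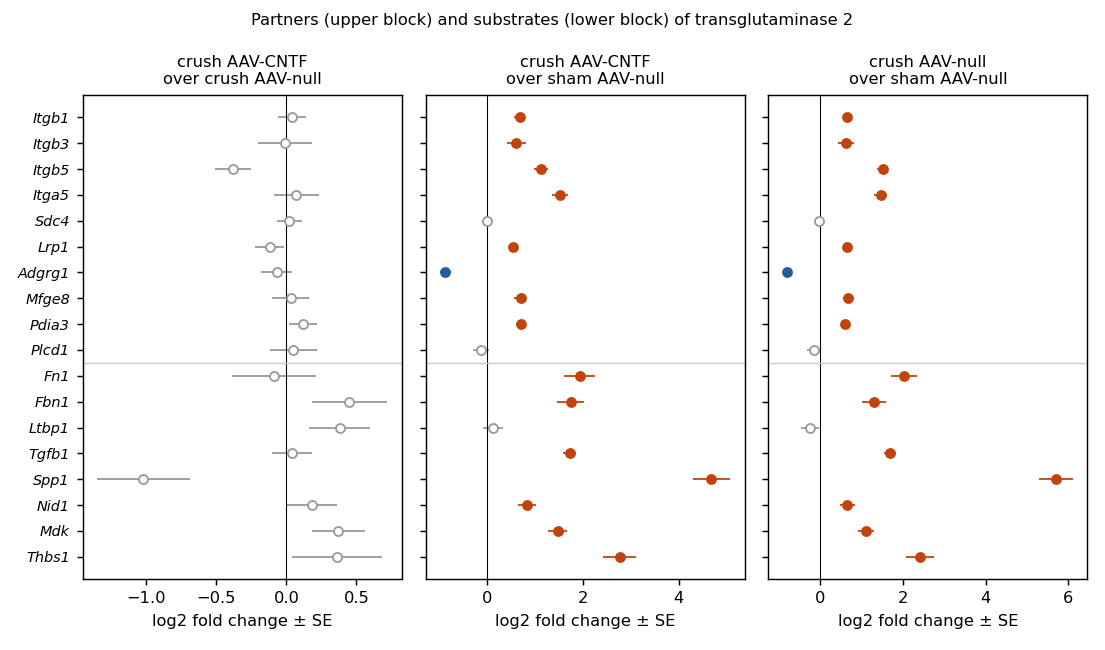
Log2 fold change ± SE (x axes, separate scales) of 10 partners (upper block) and 8 substrates (lower block) of transglutaminase 2 in 3 comparisons; filled points passed an edgeR adjusted p of 0.05, red for higher and blue for lower. Spp1 lies farthest from 0 in both comparisons with sham, and Adgrg1 is the 1 gene below 0 that passed.

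Few genes of the cornified envelope, the structure that Tgm1 builds in skin, were measured in these nerves. Of 24 cornified envelope and epidermal genes, 8 were tested, and 1 was higher in crush AAV-CNTF nerves and 0 in crush AAV-null nerves over sham by edgeR, while 17.0% and 14.7% of all tested genes were called higher in these comparisons. The 1 gene was Perp, a desmosome protein, with 8.92 ± 3.73 CPM in crush AAV-CNTF nerves and 2.92 ± 1.46 CPM in sham nerves (SD, n = 5 each; log2 fold change 1.61 ± 0.53, edgeR adjusted p = 0.0256). Its call was lost without crush AAV-CNTF replicate 3 or 5 or sham replicate 2, 3 or 6, at 1.47 to 1.55. The count was 2 without crush AAV-CNTF replicate 6 or crush AAV-null replicate 3 or 6, and 0 without crush AAV-CNTF replicate 3 or 5 or sham replicate 2 or 3. Lor, the main protein of the cornified envelope, averaged 2.34 ± 0.88 CPM in crush AAV-CNTF nerves, 2.47 ± 0.783 CPM in crush AAV-null nerves and 0.718 ± 0.779 CPM in sham nerves (SD, n = 5 each) and was not called.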

How the data were processed

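RNA of 15 optic nerves was sequenced, and the 3 groups of 5 follow the sample titles. Per the labels' protocols, 2 library kits are named, Nugen AnyDeplete and TruSeq Stranded. No source used here ties a library to its kit. Per the submitters' processing notes, Trimmomatic 0.32, STAR 2.5.3a, RSEM 1.2.31, R 3.2.3 and DESeq2 are named, with the build mm10. The annotation and strand setting are not given there.

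Per the file headers, the deposited table gives each gene's expected count per library, which RSEM estimates and which need not be whole. It also gives the authors' FPKM, the authors' log2 fold change for each pair of groups, and the authors' adjusted p-value. Of the expected counts, 13.7% to 18.3% per library were not whole, and they were rounded before testing. Totals ran from 19856688 to 29558293, so precision rests mainly on the library-to-library spread, a biological coefficient of variation of 0.371. Intervals and floors cover counting error only where they rest on counts.

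Counts were fitted in R 4.3.3 with edgeR 4.0.16 (TMM, filterByExpr, quasi-likelihood test, 1 model, 12 residual degrees of freedom), and p-values were adjusted by Benjamini-Hochberg over 14194 genes, with 0.05 as the threshold. CPM uses TMM-scaled library sizes, log2 CPM uses a prior count of 2, and 95% intervals use the standard error with 12 degrees of freedom. Correlations used 100000 permutations. GENCODE M21, in which 14215 identifiers matched, gave positions, and RefSeq on GRCm38.p6 gave promoter windows of Stra6l and Tgm1. The model was tested on simulated data.

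The 3 genes and all gene lists were chosen with earlier results of these data known. Named are the 3 genes, the 5 most like each over 15 and over 10 libraries (mean of at least 5 CPM), and up to 4 called genes per list, direction and comparison. Stra6, Rbp4, Aldh1a1, Aldh1a2, Crabp2, Cyp26b1, Rarb, F13a1, Fn1, Mfge8, Adgrg1, Cntf and the most abundant gene of each marker list are named too. A few genes selected this way are not reported here. Any further gene named singly was chosen after seeing its values. The settings tried instead were upper quartile or RLE normalization, no filter or a mean of at least 1 CPM, replicate number as a block, DESeq2 1.42.0, limma-voom (limma 3.58.1), 10 libraries only, and each library left out; FPKM ratios and likeness to Tgm1 without crush AAV-null replicate 6 were added after seeing the data. Same-number libraries had correlations of -0.05 to 0.11 and were not treated as paired, and no 2 libraries were duplicates.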

Additional observations from a re-analysis of the deposited data

Results flagged for a closer look

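Each flagged value is a library whose gap to its nearest neighbour took an unusually large share of its group's range. In 83 groups of 5 libraries from 28 genes, 6 were flagged, and chance flags about 1 in 20 groups. Stra6l had 10.2 CPM in crush AAV-CNTF replicate 6, above the other 4 libraries of its group at 2.40 to 4.26 CPM, and that library also had the highest phagocyte marker sum and the lowest Tgm2 level of the group. Lipe had 20.1 CPM in crush AAV-null replicate 4 and 23.8 CPM in sham replicate 3, each the highest of its group. Tgfb1 had 183 CPM in crush AAV-CNTF replicate 2, the highest of its group. Perp had 5.45 CPM in sham replicate 4, and Rarb had 23.9 CPM in sham replicate 3, again the highest of their groups.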

How the results depend on the processing

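No called result changed direction under any alternative run. Of results that were not called, single genes changed sign 31 times between the vectors, among them Rbp4 with limma-voom (0.27, main -0.43), and the relation of Stra6l and Tgm1 had r 0.42 without crush AAV-null replicate 6 (main -0.18). The relation of Tgm1 and Tgm2 (main -0.02) reached 0.13 without crush AAV-CNTF replicate 6. No alternative called Stra6l, Tgm1 or Tgm2 between the vectors. Counts of called genes between the vectors depended most on the setting: 8 in the main model, 16 with the replicate block, 78 with DESeq2, 5 with limma-voom and 1 with only the 10 libraries compared, and from 1 (without crush AAV-null replicate 2 or 4) to 41 (without crush AAV-CNTF replicate 6) when 1 library was left out. The cause was not tested. The cornified envelope count over sham was 2 with DESeq2, limma-voom or only 10 libraries for crush AAV-CNTF (main 1, left out 0 to 2) and 1 with limma-voom for crush AAV-null (main 0, left out 0 to 1). The Tgm1 log2 fold change of crush AAV-CNTF over sham was 6.75 with limma-voom (main 6.14, left out 5.82 to 6.99). With 1 library left out, the crush AAV-null counts over sham ranged from 5 to 9 for retinoid handling and from 2 to 5 for retinoic acid targets. The Stra6l bound over sham ranged from 115 to 183 for crush AAV-CNTF and from 233 to 358 for crush AAV-null, and tests other than edgeR give no other level for it.

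Replicate numbers were not a pairing by the design: 15 same-number pairs had correlations of -0.05 to 0.11, and 6 of 30 checks were best with their own number. With the replicate block the log2 fold changes between the vectors were -0.89 for Stra6l, 0.36 for Tgm1 and 0.33 for Tgm2. Of the single genes named from the lists, the block added the crush AAV-null calls of Rara (0.76) and Cyp26b1 (0.73) over sham and removed the crush AAV-CNTF calls of Aldh1a3 (2.48) and Rbp4 (-1.82). Over all settings that left out no library, 3 single-gene calls were lost and 7 gained. With 1 library left out, 36 were lost and 8 gained. Depth limits Stra6l and Tgm1 most, since their sham levels rest on 0 and 15 counts.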

Other observations

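Some marker groups not used beside the 3 genes also differed between crush and sham. The summed level of 6 genes of dividing cells, led by Mki67, was 245 to 341 CPM in crush AAV-CNTF nerves, 246 to 343 CPM in crush AAV-null nerves and 11.3 to 28.3 CPM in sham nerves. The sum of 7 genes of mature oligodendrocytes, led by Mbp, was 16348 to 23791 CPM in crush AAV-CNTF nerves, 20142 to 28675 CPM in crush AAV-null nerves and 49155 to 62456 CPM in sham nerves. The sum of 7 astrocyte genes, led by Gfap, was 4654 to 5738 CPM, 4281 to 5732 CPM and 7087 to 7814 CPM in the same order of groups. For these 3 sums, both crush groups lay wholly on 1 side of the sham group. Neutrophil genes were mostly without a row (2 of 8 listed, Csf3r leading), and their sum was 58.5 to 82.6 CPM, 52.4 to 79.9 CPM and 25.6 to 35.6 CPM.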
